A study of Zea mays with 9 samples.

Results

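The comparison set chromatin accessibility in maize roots after 12 h in tunicamycin against that after 6 h, late against early endoplasmic reticulum stress. It used 6 of the 9 libraries of the series, 3 at 12 h and 3 at 6 h, chosen by their time labels, and all 38703 gene rows. Per the labels, all libraries came from the B73 inbred line, as nuclei of flash-frozen roots of seedlings given tunicamycin at 5 mg per ml in DMSO, which may be the strength of a stock, since the labels do not say. Seedlings had germinated for 2 days at 30 °C and grown for 7 days at 23 °C. The 3 libraries at 0 h carry the same drug label but had spent no time in the drug, and were not part of the contrast. They served to order genes by coverage, and to share in the estimate of spread. The series calls its replicates biological, and gives no batch, date or pooling of plants. Both 12 h and 6 h libraries were in the drug, and untreated roots of the same ages were not analysed here. The effect of a longer treatment therefore cannot be told apart from that of later sampling. One label names protoplasts, and the root labels are followed because the extraction protocol names root.

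Tunicamycin blocks the first step of N-linked glycosylation, so that glycoproteins misfold in the endoplasmic reticulum. In plants the sensor IRE1 then cuts the messenger RNA of a bZIP transcription factor, which switches on genes for chaperones and for the disposal of misfolded proteins. When the stress lasts, cells can pass from this protective response to programmed cell death, and the title of the series places the study in that passage. ATAC-seq reads out open chromatin, because a transposase inserts sequencing adapters where DNA is accessible. Coverage of a gene in bulk roots can differ because more cells are open there or because each cell is more open, and these cannot be told apart.

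The deposited values were coverage in bases for each gene identifier, scaled here by each library's total. Low values piled up on multiples of 73, which was seen 5648 times against a mean of 45.6 for its neighbours, and 17.1% to 22.6% of the values above 0 in the 12 h and 6 h libraries were such multiples. A coverage of 73 is therefore called 1 read here, as an inference from these steps, since the labels do not give the length of the reads counted. Total coverage, the sum over the gene rows, was 35.8 to 36.8 megabases in the 12 h libraries and 28.9 to 33.1 megabases in the 6 h libraries. The means were 36.3 ± 0.47 and 31.0 ± 2.10 megabases at 12 h and 6 h (SD, n = 3 each). Every 12 h total lay above every 6 h total (two-sided exact permutation p = 0.1, the smallest that 3 against 3 allows). The median gene held 11.2 to 11.5 reads in a 12 h library and 9 to 10.4 reads in a 6 h library, which limits how finely a single gene can be followed. Of the 38703 identifiers, 0 matched the RefSeq gene table used here. Genes are therefore given by identifier alone, with no name, function or position, and neither stress genes nor root markers could be picked out.

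No single gene passed the test between 12 h and 6 h, but several had 12 h and 6 h libraries far apart. The gene of lowest p with more coverage at 12 h was Zm00001d019241. Its scaled coverage was 2273, 2593 and 2497 in the 12 h libraries, against 1103, 1159 and 827 in the 6 h libraries. All 12 h libraries lay well above all 6 h libraries, by more than the spread within either time. The genes named here were picked for the lowest p in their direction, which favours such gaps and large estimates. Their intervals take no account of that choice. The means were 2454 ± 164 at 12 h and 1029.5 ± 178 at 6 h (SD, n = 3 each), a ratio of 2.38. On the scale of log2(coverage + 73) the change was 1.21 (SE 0.24, 95% interval 0.72 to 1.70), and the limma adjusted p was 0.0975. The 0 h libraries held 1188, 1311 and 788, on both sides of the 6 h range, and all of them lay below the 12 h libraries. At 33.6 reads in the mean of 12 h and 14.1 reads in the mean of 6 h, this was a gene of middling depth, with 69.2% of genes lower at 0 h. Its log2 change stayed between 1.07 and 1.30 under the alternatives run on a log scale, and the limma adjusted p ran from 0.0209 to 0.492. It passed the threshold on a square-root scale (limma adjusted p 0.0241). It also passed where only genes with at least 20 reads in 3 libraries were tested (limma adjusted p 0.0209). Only its 12 h libraries held 20 reads or more, so it entered that filtered set through the time at which it was high. The call under that minimum is therefore no support for this gene.

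Zm00001d028512 came next among genes with more coverage at 12 h. It had 2233, 2045 and 1594 in the 12 h libraries, against 787, 1112 and 856 in the 6 h libraries. The lowest 12 h library exceeded the highest 6 h library. Means were 1957 ± 328 at 12 h and 918 ± 171 at 6 h (SD, n = 3 each), and the log2 change of 1.04 (SE 0.24) had a limma adjusted p of 0.412. Unlike in Zm00001d019241, the 0 h libraries, at 1527, 1424 and 1364, fell in the gap between both later times.

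Zm00001d051105 had the lowest p of all genes with the main settings, with less coverage at 12 h. Its 12 h libraries held 69.3, 154 and 62.4, against 523, 1069.8 and 568 in the 6 h libraries. The groups did not overlap, and the 12 h values were those of 0.854 to 2.11 reads, near the least that can be seen. Means were 95.2 ± 51.0 at 12 h and 720.3 ± 304 at 6 h (SD, n = 3 each). The log2 change was -2.21 (SE 0.44, 95% interval -3.10 to -1.33), and the limma adjusted p was 0.0975. With so few reads at 12 h the size depended on the pseudocount, and it was -2.95 with a pseudocount of 1. The 0 h libraries, at 346, 710.3 and 700.4, all lay above the 12 h libraries.

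Zm00001d049290 was the second gene with less coverage at 12 h. It had 300.1, 492 and 356 in the 12 h libraries, against 1381, 1000.2 and 1138 in the 6 h libraries. The highest 12 h library stayed below the lowest 6 h library. Means were 382 ± 98.6 at 12 h and 1173 ± 193 at 6 h (SD, n = 3 each), and the log2 change of -1.46 (SE 0.34) had a limma adjusted p of 0.412. Its 0 h libraries disagreed, with 1332, 401 and 1303, so that 0 h replicate 2 sat inside the 12 h range.

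**Figure D1:**
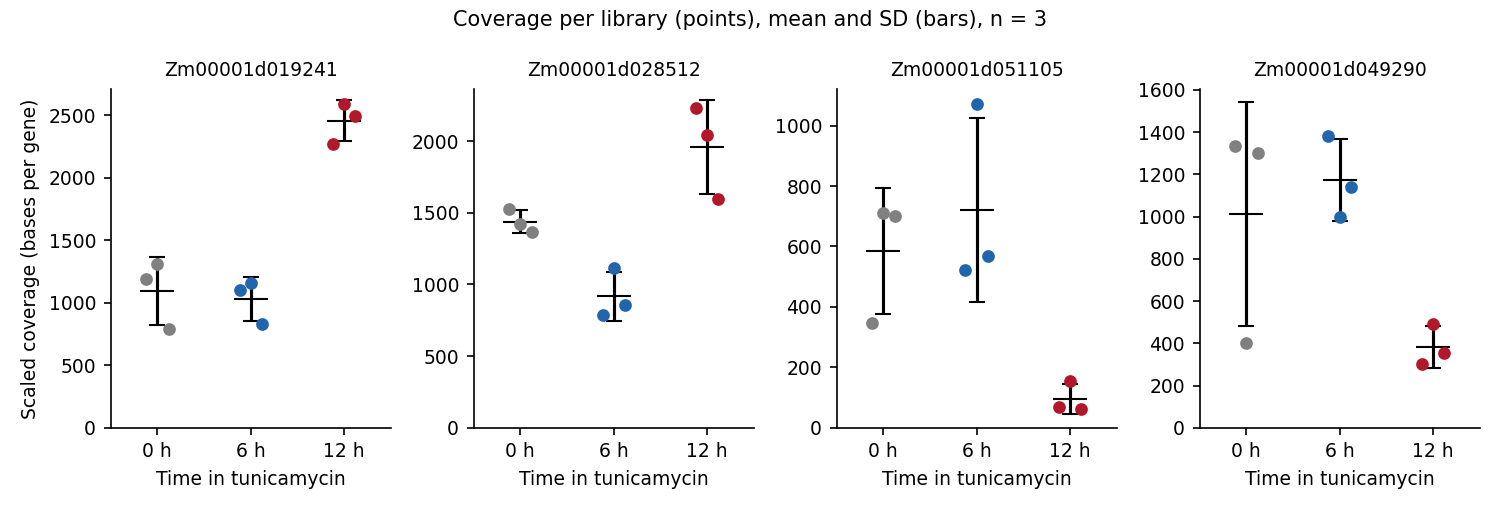
Scaled coverage in bases per gene (vertical axes, from 0) in each library at 0 h, 6 h and 12 h for 4 genes; points are libraries, and bars are the mean and SD (n = 3). In Zm00001d019241 the 12 h libraries at 2273 to 2593 stand above all others, and in Zm00001d051105 the 12 h libraries at 62.4 to 154 stand below all others.

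Beyond these, the 12 genes of lowest p in each direction were examined together as the rule for named genes gave them. The 12 with more coverage at 12 h had log2 changes of 1.04 to 2.13, with means of 304 to 2454 at 12 h and 14.1 to 1029.5 at 6 h. In 10 of these 12 the 6 h mean was under 730, the coverage of 10 reads. The 12 with less coverage at 12 h had log2 changes of -2.21 to -0.79, with means of 69.2 to 1942 at 12 h and 488 to 3316 at 6 h. In 5 of them the 12 h mean was under 10 reads. The limma adjusted p ran from 0.0975 to 0.454 in both sets, so none passed. The 0 h mean lay between the 12 h mean and the 6 h mean in all 12 genes of either set. These genes were picked because 12 h and 6 h were far apart, which favours such a placing, so it is a description only.

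**Figure D2:**
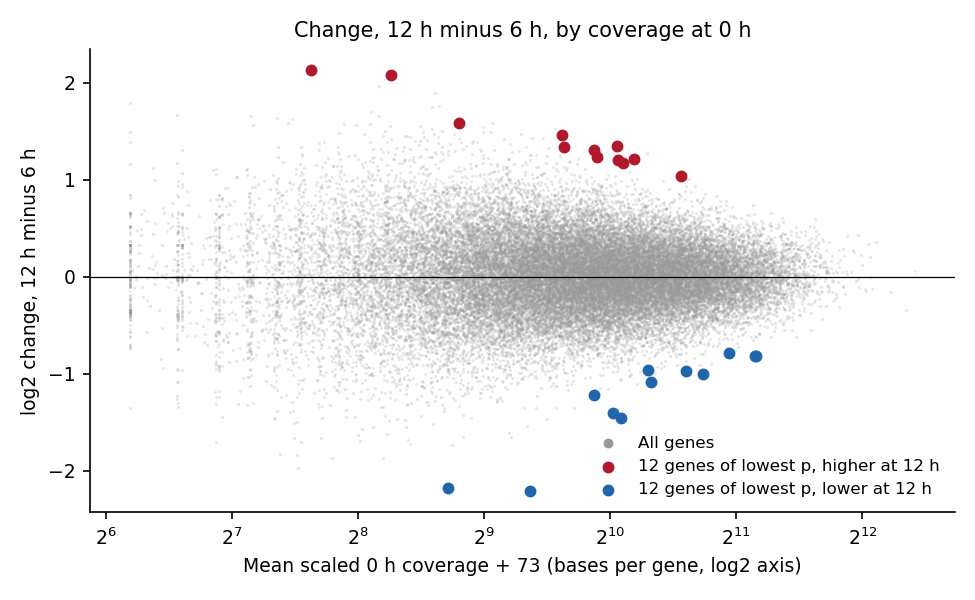
Change in log2(coverage + 73), 12 h minus 6 h (vertical axis), against mean scaled 0 h coverage plus 73 (horizontal log2 axis, bases per gene); grey points are 38703 genes and coloured points the 12 genes of lowest p in each direction. The cloud narrows to the right, and the coloured points lie at its edges, at 1.04 to 2.13 above and -2.21 to -0.79 below.

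Over all gene rows, scaled coverage at 12 h lay about as often above as below that at 6 h. Limma, with Benjamini-Hochberg adjustment over 38703 genes, called 0 genes at an adjusted p under 0.05, which is 0%. Without adjustment, 2606 genes had a p under 0.05, or 6.73% of those tested. Of these, 1352 (3.49%) had more coverage at 12 h and 1254 (3.24%) had less. With voom weights limma likewise called none, and 2430 genes had an unadjusted p under 0.05, of which 1116 had more coverage at 12 h and 1314 less. The split between directions thus moved with the weighting. It also moved with single libraries. Without 6 h replicate 2 it was 1632 with more coverage at 12 h and 1182 with less. Without 12 h replicate 3 it was 1046 with more and 1229 with less. The first p bin of width 0.05 held 2606 genes and the next 2226, where an even spread would put 1935 in each, and the later bins fell to as few as 1740. The median log2 change over all genes was 0.01. Scaling each library by its total holds gains and losses near balance. A gain or loss shared by all genes could therefore not be seen here.

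**Figure D3:**
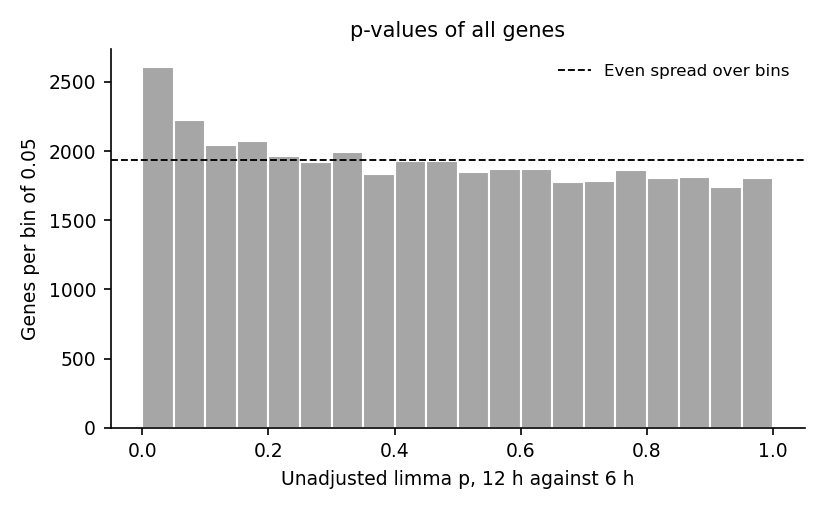
Number of genes (vertical axis) in each bin of 0.05 of the unadjusted limma p for 12 h against 6 h (horizontal axis); the dashed line is the number per bin if p-values were spread evenly, 1935. The first bin, with 2606 genes, is the highest, and bins near 1 lie below the line.

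Genes that reached the unadjusted level were picked by p in this same contrast, which favours large estimates. Their sizes are therefore a description only. The 1352 with more coverage at 12 h had a median log2 change of 0.76 (range 0.33 to 2.13), with median coverage of 1077 at 12 h and 623 at 6 h. The 1254 with less had a median of -0.75 (range -2.21 to -0.32), with median coverage of 674 at 12 h and 1149 at 6 h. Their median 0 h coverage was 879.7 in genes with more at 12 h and 908 in genes with less, above the 791 of all genes. Groups that did not overlap were a looser mark. Every 12 h library lay above every 6 h library in 2158 genes (5.58%), and every 12 h library lay below every 6 h library in 2174 genes (5.62%). With 3 against 3 libraries, shuffled labels would separate the groups at a rate of 0.1 over both directions together. These shares are near that rate, so they are a description and no result about these genes.

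The size of change the libraries could have missed was read from the interval of each gene. In 23233 of 38703 genes the 95% interval of the log2 change lay wholly within -1 to 1, that is within 2-fold of no change in either direction. These intervals are taken gene by gene, without adjustment for the number of genes. An estimated change of 2-fold or more was seen in 327 genes upward at 12 h (0.845%) and in 314 genes downward (0.811%). Of these, 288 and 272 reached an unadjusted p under 0.05.

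Coverage at 0 h, which the contrast did not use, ordered genes into 10 classes. In the most covered class, of 3871 genes with a median of 2021 (27.7 reads), 98.0% had an interval within 2-fold. No gene of that class had an estimated change of 2-fold, and its log2 changes ran from -0.90 to 0.83. In the least covered class, of 3870 genes with a median of 158 (2.16 reads), 1.99% had an interval within 2-fold and 6.77% an estimated change of 2-fold or more. The pseudocount of 1 read pulls changes in that class toward 0. The median standard error of the log2 change was 0.21 in the most covered class and 0.54 in the least covered.

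The share of genes at an unadjusted p under 0.05 was 8.45% in the most covered class and 5.12% in the least covered, with 6.73% over all genes. In the most covered class 177 genes had more coverage at 12 h and 150 had less. Their median absolute log2 change was 0.49, against 1.24 among such genes of the least covered class. The smallest absolute log2 change that reached that level was 0.32 in the most covered class and 0.93 in the least covered, so these sizes follow the standard error and are no comparison of effects. Whether more highly covered genes differ more often between the times, or are only measured better, was not tested.

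**Figure D4:**
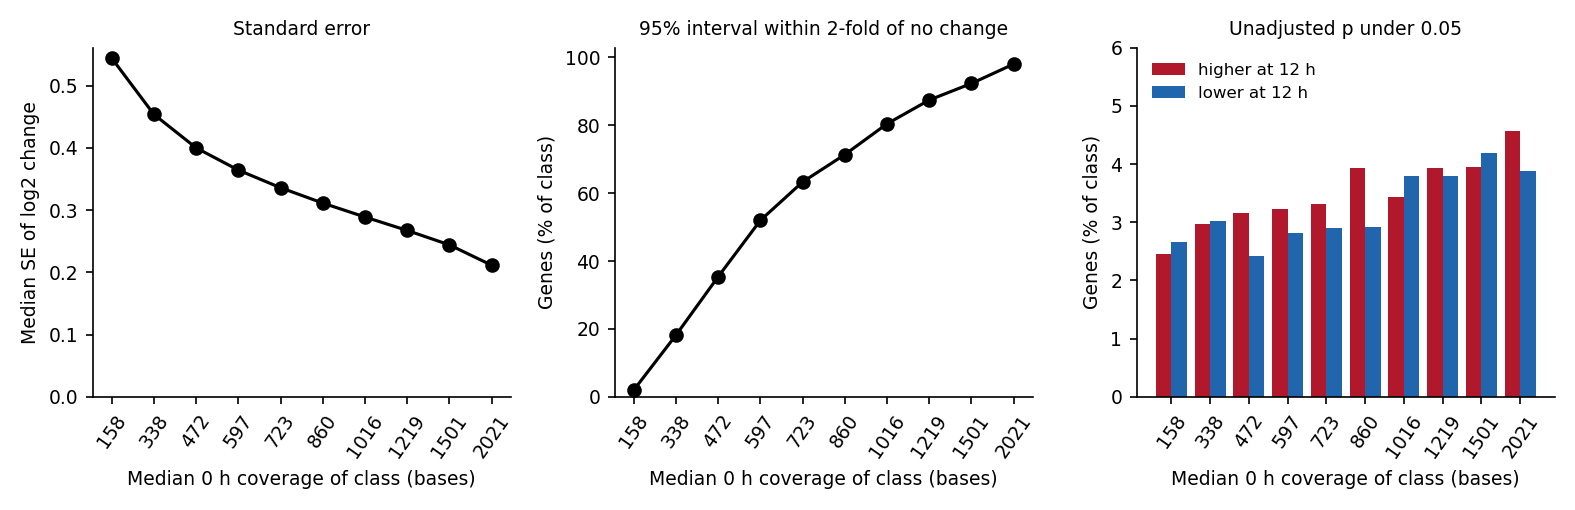
Classes of genes ordered by 0 h coverage (horizontal axes, median coverage of the class in bases), with the median SE of the log2 change (left), the percent of genes whose 95% interval lies within 2-fold of no change (middle), and the percent at an unadjusted p under 0.05 with more (red) or less (blue) coverage at 12 h (right). The SE falls to 0.21 and the middle curve reaches 98.0% in the most covered class.

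The share of coverage in strongly and in weakly covered genes differed between 12 h and 6 h by less than the 6 h libraries scattered. The most covered class of genes by 0 h coverage took 21.9% ± 0.0263 of all coverage at 12 h and 21.8% ± 0.208 at 6 h (SD, n = 3 each). The difference of 0.0914 percentage points had a two-sided exact permutation p of 0.6. It was 0.197 without 6 h replicate 1 and -0.0112 without 6 h replicate 2. The least covered class took 2.17% ± 0.0262 at 12 h and 2.19% ± 0.104 at 6 h (SD, n = 3 each), a difference of -0.0194 points (exact permutation p = 0.9). That difference was -0.0788 without 6 h replicate 1, 0.0195 without 6 h replicate 2 and 0.000926 without 6 h replicate 3. Over the 10 classes, the adjusted p was 1 in each case. The fourth class alone had groups that did not overlap, at 11.3% ± 0.0202 at 12 h and 11.4% ± 0.0346 at 6 h (SD, n = 3 each; exact permutation p = 0.1, the smallest possible, adjusted 1).

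The 6 h libraries scattered more among themselves than the 12 h libraries did. Among 21543 genes with a mean of at least 730, a pair of 12 h libraries differed by 2-fold or more in 3.66% to 3.95% of genes, and a pair of 6 h libraries in 5.38% to 5.93%. Pairs of a 12 h with a 6 h library differed so in 4.57% to 5.74% of genes. That range overlapped the range of the 6 h pairs but reached lower. Median values were 5.01% for the pairs of a 12 h with a 6 h library, 5.83% for the 6 h pairs and 3.85% for the 12 h pairs. The median SD of log2 coverage within a time was 0.26 at 12 h and 0.29 at 6 h. The 6 h libraries had the lower totals over gene rows, and the part of these totals in the scatter was not tested. Pairs share libraries, so these ranges carry no test.

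**Figure D5:**
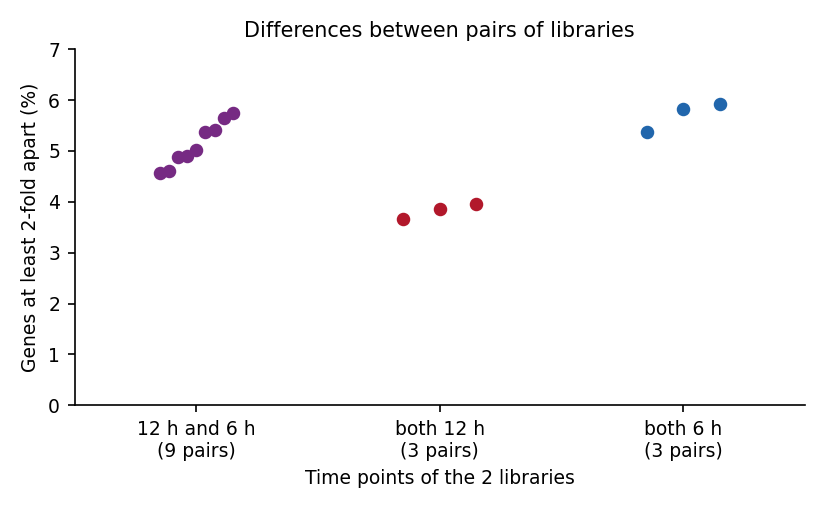
Percent of 21543 genes at least 2-fold apart between 2 libraries (vertical axis, from 0) for pairs of a 12 h with a 6 h library (9 pairs), of 12 h libraries (3 pairs) and of 6 h libraries (3 pairs); each point is a pair. Pairs of 12 h libraries lie lowest, at 3.66% to 3.95%, and pairs of 6 h libraries reach 5.93%.

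Genes that were seen at one time and listed at 0 at the other were few and shallow. Coverage was present in every 12 h library and 0 in every 6 h library in 14 genes, whose 12 h mean was at most 2.48 reads. The reverse, 0 in every 12 h library and coverage in every 6 h library, held in 8 genes, whose 6 h mean was at most 2.91 reads. The lowest limma adjusted p among both kinds was 0.534, and 38 genes were at 0 in all 6 libraries. A library at 12 h listed 559 ± 11.6 genes at 0, and one at 6 h 672 ± 75.1 (SD, n = 3 each; exact permutation p = 0.1, the smallest possible). The 12 h libraries had the higher totals over gene rows, and the part of these totals in the counts was not tested. A gene listed at 0 may still hold coverage too low to be seen at this depth. Among all gene rows, 165 had values identical to those of another row in every library, and none of the 24 genes of lowest p was among them.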

How the data were processed

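Per the labels, libraries were made with the standard ATAC-seq protocol and sequenced on a HiSeq. The authors deposited one table of signal, read as coverage in bases because low values pile up on multiples of 73, with 0 columns of no sample. Cutadapt 1.11, Bowtie2 2.2.6, MACS2 and DESeq2 are named in the submitters' processing notes without role or order. Genome build, counting window, read shift and duplicate removal are not named in the labels or the file, and each could change the values.

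Here each library was scaled by its total to the mean of 34.9 megabases, 73 was added and log2 taken. Limma 3.58.1 in R 4.3.3, with trended and robust moderation, was fitted to all 9 libraries without a low filter. The code was run on simulated data with counting scatter only and changes placed in genes of at least 10 reads. That run says nothing of changes at lower coverage or of scatter between libraries. P-values are two-sided, adjusted over 38703 genes with a threshold of 0.05, and rest on the scatter of these libraries alone, part of which may be technical. PCR duplicates, if kept, would be counted as separate reads. Pooled measures used exact permutation (SciPy 1.17.1).

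The rule for named genes took 12 genes per direction. Because identifiers matched no gene name, 2 per direction are printed, and the 22 gene lists, by names, could not be applied. Members, lists and settings were chosen with earlier results of these data known. Alternatives were another scaling, pseudocount, filters, libraries, weights, square-root scale, a replicate block, identical rows and leaving out each library.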

Additional observations from a re-analysis of the deposited data

How the results depend on the processing

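For 12 h against 6 h, limma called 0 genes at an adjusted p under 0.05 with other scaling, a pseudocount of 1, a mean of at least 10 reads, the 12 h and 6 h libraries alone, voom weights and identical rows kept once. It called 1 on the square-root scale and 1 among the 8316 genes with at least 20 reads in 3 libraries, both times Zm00001d019241. Fewer genes were tested under that minimum, which Zm00001d019241 met only through its 12 h libraries. The cause of either call was not tested. Leaving out each of the 9 libraries gave 0 to 2. The 2 came without 6 h replicate 2 and, chosen after their values were seen, are Zm00001d033462 and Zm00001d005632, with log2 changes of 1.56 and 1.94 (limma adjusted p 0.0342 each). With 6 h replicate 2 these were 1.08 and 1.46 (limma adjusted p 0.502 and 0.412). With the replicate block limma called 0, and 2622 genes had an unadjusted p under 0.05. Libraries with the same number, at 12 h and 6 h, deviated together at correlations of -0.014 to 0.008, so the numbers were not taken to pair them.

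Of 387 log2 changes of the 24 genes of lowest p under alternatives, 0 changed sign, 2 came under the threshold and 385 gave the same call. In all of these genes the 12 h and 6 h libraries did not overlap. Leaving out a library could therefore not turn a sign, and the count of signs is no support for these genes. Leaving out each 12 h or 6 h library, the total differed by 4.20 to 6.30 megabases, the share of the most covered class by -0.0112 to 0.197 points and that of the least covered by -0.0788 to 0.0195. The share of the most covered class turned negative without 6 h replicate 2, and that of the least covered class turned positive without 6 h replicate 2 or 3. Depth, at a median gene near 10 reads, limits single genes: in the least covered class 1.99% of genes had an interval within 2-fold of no change.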
